A study of Mus musculus with 8 samples.

Results

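The acetylcholine receptor and agrin-MuSK pathway of the muscle endplate was followed through 10 genes. They were chosen by name, as the 5 muscle subunits of the nicotinic acetylcholine receptor (Chrna1, Chrnb1, Chrnd, Chrne and Chrng) and the 5 genes that gather these receptors under the nerve (Agrn, Lrp4, Musk, Dok7 and Rapsn). Each has 1 probe set annotated to its symbol alone, and the 10 genes were among 19938 genes measured. Gene expression was compared in soleus, a calf muscle rich in slow fibres, between 4 male Ts65Dn mice and 4 male wild-type (WT) mice, all aged 5 months, with 1 array per mouse. Ts65Dn mice, used to model Down syndrome, carry an extra copy of parts of mouse chromosomes 16 and 17. The WT mice were colony controls labelled B6EiC3SnF1/J, a mixed B6 and C3H background, while the Ts65Dn mice carry only that name as their strain. All muscles were taken in the basal state under pentobarbital. None of the 10 genes lies in the trisomic segments.

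At the endplate, the motor nerve releases acetylcholine onto receptors packed in the muscle membrane. Nerve-derived agrin binds Lrp4, which activates the kinase MuSK; with the adaptor Dok7 this leads to clustering of the receptors by the scaffold rapsyn. Adult receptors hold the epsilon subunit in the place of the fetal gamma subunit, and muscle that has lost its nerve is known to make gamma again, along with alpha, delta and MuSK. Endplate nuclei are a small share of a muscle's nuclei, so these transcripts are diluted in RNA of a whole muscle, in which fewer cells of a type and less RNA per cell cannot be told apart.

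The labelled tissue was checked against its defining genes. The 8 general skeletal muscle genes lay between 8.84 and 12.56 (log2) in all arrays and the 8 slow-fibre genes between 8.13 and 12.45. Among these, the slow myosin Myh7 had values of 10.42 to 10.63 in Ts65Dn and 9.85 to 10.58 in WT. The 8 fast-fibre genes lay between 5.04 and 12.55, so these levels do not single out soleus. The fast myosin Myh4 had values of 6.22 to 10.52 in Ts65Dn and 5.89 to 6.44 in WT. The arrays themselves differed between the groups. The median over all probe sets was 4.23 to 4.29 in Ts65Dn and 4.37 to 4.56 in WT, and WT replicates 2 and 3 had the narrowest spread (interquartile ranges of 2.74 and 2.62, against 2.90 to 3.12 in the other arrays). Log2 fold changes, always Ts65Dn minus WT, therefore followed the level of a gene, with a median of -0.10 over all genes. Beside each value as deposited, a level-matched value is given, from which the median deviation of the 100 genes nearest in mean level was subtracted in each array. Whether this difference between the arrays is technical was not tested. Counts of genes that passed also rested on single arrays: at most 1 of all genes passed when any Ts65Dn array, WT replicate 2 or WT replicate 3 was left out.

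**Figure D1:**
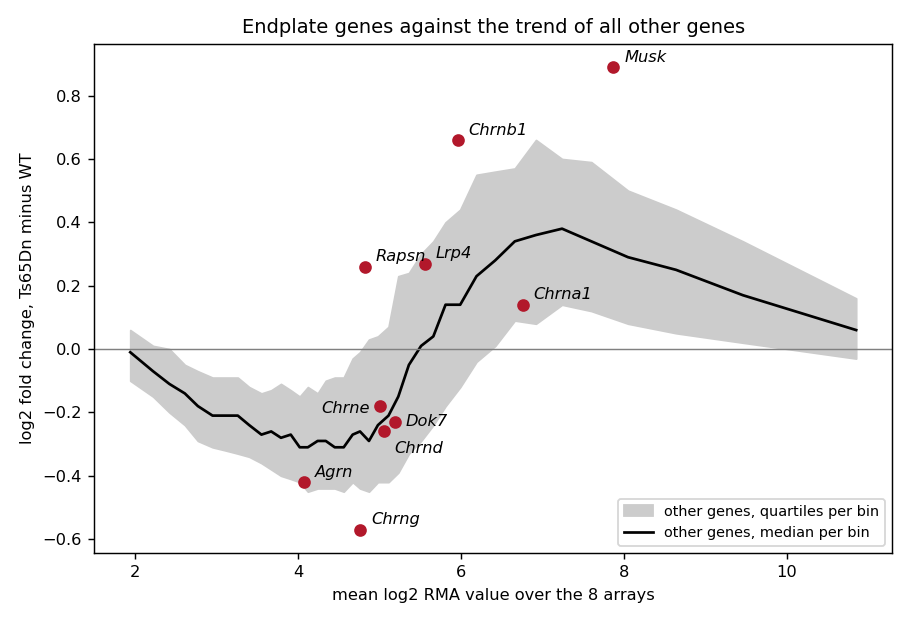
Log2 fold change (Ts65Dn minus WT, vertical axis) against the mean log2 value over the 8 arrays (horizontal axis). Red points are the 10 endplate genes, the black line and grey band are the median and quartiles of all other genes in bins of equal gene number. Dim genes sat below 0 and genes between about 6 and 8 above it; Chrne, Chrnd and Dok7 lay near the line, Musk (0.89), Chrnb1 (0.66) and Rapsn (0.26) above the band and Chrng (-0.57) below it.

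The first question was whether the pathway's transcripts differed between Ts65Dn and WT soleus. Musk and Chrnb1 were the genes with the largest positive differences, at 0.89 and 0.66 on the log2 scale, and Chrng and Agrn those with the largest negative ones, at -0.57 and -0.42. None of the 10 passed limma's test, taken at a p under 0.05 after Benjamini-Hochberg adjustment over all genes, where 5.26% of all genes passed (1049 of 19938). The closest were Chrnb1 (limma adjusted p = 0.0521), Musk (0.0529), Agrn (0.0580) and Chrng (0.0634). At an unadjusted p under 0.05 there were 5 of the 10 genes, beside 34.8% of all genes, so 5 of 10 is not far from the background. The groups did not overlap for 4 of the 10 (22.7% of all genes): Chrnb1, Musk and Lrp4 were higher in every Ts65Dn array (6.81% of all genes) and Agrn was lower in every one (15.9%). Of the 10 fold changes 5 were positive and 5 negative, with a median of -0.02. Over all genes 39.2% were positive, with a median of -0.10.

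**Figure D2:**
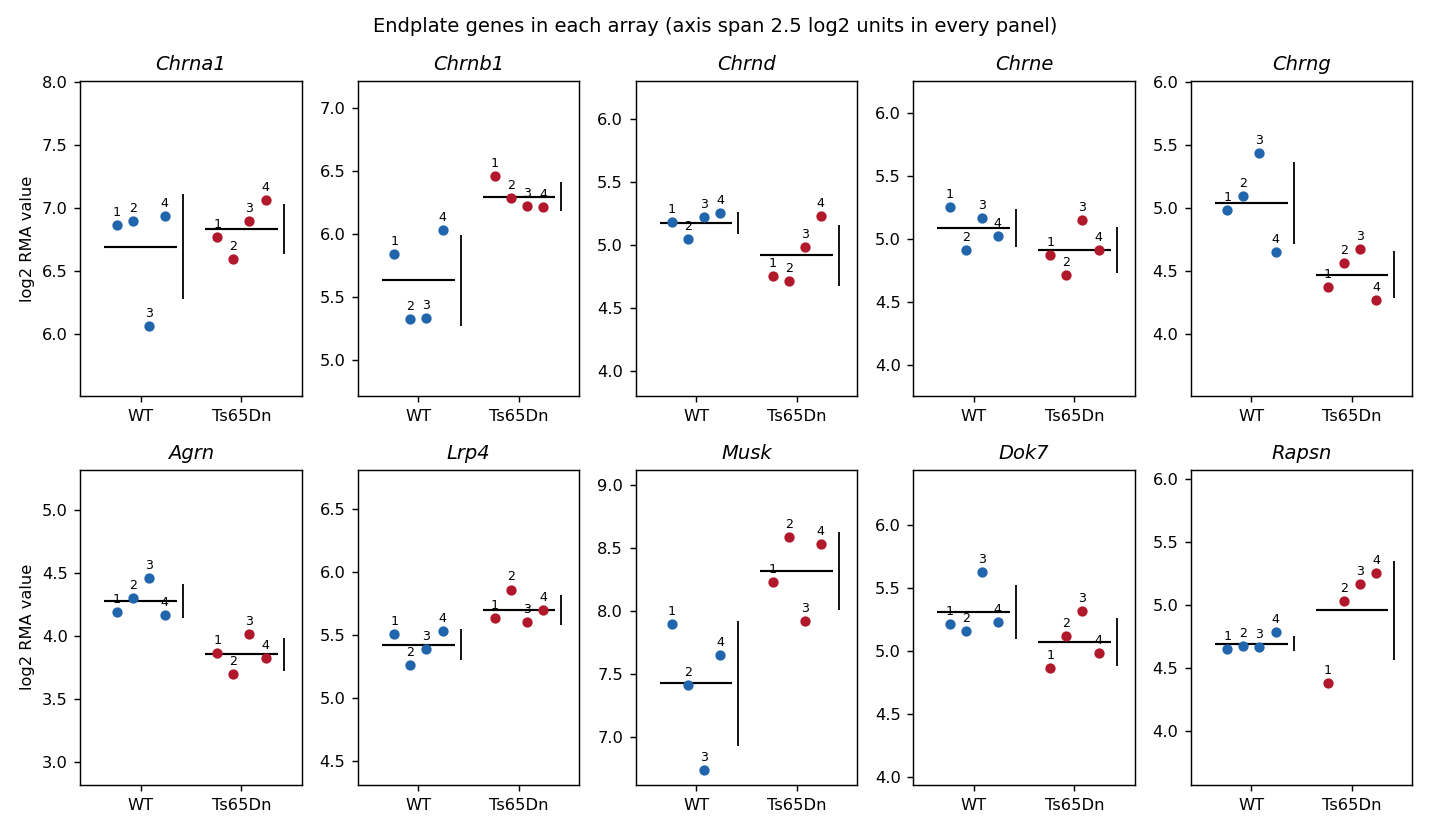
Log2 RMA value (vertical axis) of each endplate gene in each array, WT in blue and Ts65Dn in red, numbered by replicate. The horizontal bar is the group mean and the vertical bar spans 1 SD on either side (n = 4); every panel spans 2.5 log2 units. The groups were apart for Chrnb1, Agrn, Lrp4 and Musk, and WT replicate 3 was the lowest WT array for Chrna1 (6.07) and Musk (6.74) and the highest for Chrng (5.44), Agrn (4.46) and Dok7 (5.63).

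Among the receptor subunits, Chrng codes for the fetal gamma subunit, whose return is a classical sign of denervation. It was at 4.38, 4.57, 4.68 and 4.27 (log2) in Ts65Dn replicates 1 to 4 and at 4.99, 5.10, 5.44 and 4.65 in WT replicates 1 to 4. Of the Ts65Dn arrays, 3 lay below the WT range, and replicate 3 lay just above WT replicate 4. These values lie around the median over all genes, which was 4.57 to 4.65 in the Ts65Dn arrays and 4.72 to 4.86 in the WT arrays. As RMA values carry no detection call, it is not known whether gamma transcript was present in either group. The means were 4.48 ± 0.19 against 5.05 ± 0.32 (SD, n = 4). They differed by -0.57 (limma 95% interval -0.95 to -0.19). Genes of a similar level were lower too, with a median of -0.27 over the nearest 100, of which 45 had an unadjusted p under 0.05 and 4 passed. Level-matched, the Chrng difference was -0.31 (95% interval -0.62 to 0.01, limma adjusted p = 0.255). It was -0.34 without WT replicates 2 and 3. Without WT replicate 4 it was -0.70 and passed (limma adjusted p = 0.0405), as did 2422 of all 19938 genes.

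Chrne, the adult epsilon subunit, was at 4.87, 4.71, 5.15 and 4.91 in Ts65Dn and at 5.25, 4.91, 5.16 and 5.02 in WT (log2, replicates 1 to 4). The groups overlapped, with a difference of -0.18 (95% interval -0.47 to 0.12, limma adjusted p = 0.348) and a level-matched one of 0.04. The nearest 100 genes had a median of -0.24, so that Chrne lay with other genes of its level. The log2 difference of Chrng minus Chrne within an array, which can be compared between arrays but is no measure of the subunits' ratio, was -0.49, -0.14, -0.46 and -0.64 in Ts65Dn and -0.26, 0.19, 0.27 and -0.37 in WT. Its group means differed by -0.39, or -0.34 in level-matched values, and the groups overlapped.

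Chrnb1 codes for the beta subunit, present in both the fetal and the adult receptor. Its values were 6.46, 6.28, 6.22 and 6.21 in Ts65Dn and 5.84, 5.32, 5.33 and 6.03 in WT (log2, replicates 1 to 4). All 4 Ts65Dn arrays lay above all WT arrays, and within WT replicates 2 and 3 were well below replicates 1 and 4. The means were 6.29 ± 0.12 and 5.63 ± 0.36 (SD, n = 4), a difference of 0.66 (95% interval 0.27 to 1.04, limma adjusted p = 0.0521). Of the 100 genes nearest in level, 83 had a lower fold change, and their median was 0.17. The level-matched difference was 0.55 (0.19 to 0.92, limma adjusted p = 0.109). The groups were then only just apart, with a lowest Ts65Dn value of 6.06 and a highest WT value of 6.04. Without WT replicates 2 and 3 the difference as deposited was 0.35. It passed without WT replicate 1 (0.73, limma adjusted p = 0.0397) or 4 (0.79, 0.0385), and after median centring of the arrays (0.86, 0.0463). In these settings 2865, 2422 and 1008 of all 19938 genes passed, in that order. With any other single array left out, the limma adjusted p of Chrnb1 was 0.0825 to 0.125.

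The alpha subunit gene Chrna1, whose product carries the main part of the acetylcholine binding site, was at 6.77, 6.60, 6.90 and 7.07 in Ts65Dn and at 6.87, 6.90, 6.07 and 6.94 in WT (log2, replicates 1 to 4). WT replicate 3 alone was low and the other arrays overlapped. The log2 fold change was 0.14 (95% interval -0.30 to 0.58, limma adjusted p = 0.618), and it turned to -0.06 without WT replicate 3 and to -0.21 when level-matched. Chrnd, the delta subunit, was at 4.75, 4.71, 4.98 and 5.23 in Ts65Dn and at 5.18, 5.05, 5.22 and 5.25 in WT. Its fold change of -0.26 (-0.56 to 0.05, limma adjusted p = 0.206) matched the median of -0.27 over the nearest 100 genes, and its level-matched value was 0.04. The subunits thus did not share a direction: Chrnb1 was higher in every Ts65Dn array while Chrnd and Chrne lay with other genes of their level.

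The start regions of 4 of these genes are shown because their regulatory elements are well studied. Myogenic factors such as myogenin bind the E-box (CANNTG, which reads the same pattern on both strands), and GABP, an Ets factor, binds the N-box (CCGGAA, searched on both strands), an element of genes transcribed at the endplate. RefSeq windows (build GRCm38.p6) were matched for 7 of the 10 genes, and Chrnd, Rapsn and Lrp4 had none. The 250 bases before the start are printed 5′ to 3′ along the gene's strand, with both motifs in capitals; the 2 motifs overlapped in none of them. Windows lie at chr1:87205561-87205810 (Chrng, plus strand), chr11:70619195-70619444 (Chrne, minus), chr11:69795938-69796187 (Chrnb1, minus) and chr4:58285712-58285961 (Musk, plus).
Chrng: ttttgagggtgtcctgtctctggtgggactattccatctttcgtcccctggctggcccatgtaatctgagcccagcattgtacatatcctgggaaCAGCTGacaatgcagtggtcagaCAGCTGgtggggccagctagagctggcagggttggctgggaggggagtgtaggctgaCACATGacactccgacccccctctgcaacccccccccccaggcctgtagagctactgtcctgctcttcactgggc
Chrne: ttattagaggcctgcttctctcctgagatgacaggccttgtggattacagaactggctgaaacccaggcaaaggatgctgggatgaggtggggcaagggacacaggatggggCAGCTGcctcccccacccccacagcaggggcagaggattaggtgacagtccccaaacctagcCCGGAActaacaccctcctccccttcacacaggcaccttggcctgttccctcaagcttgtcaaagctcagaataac
Chrnb1: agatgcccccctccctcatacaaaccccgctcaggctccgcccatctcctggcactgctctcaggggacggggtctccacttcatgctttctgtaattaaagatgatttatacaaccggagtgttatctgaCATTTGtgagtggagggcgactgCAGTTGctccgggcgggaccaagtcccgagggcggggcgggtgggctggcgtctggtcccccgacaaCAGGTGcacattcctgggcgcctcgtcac
Musk: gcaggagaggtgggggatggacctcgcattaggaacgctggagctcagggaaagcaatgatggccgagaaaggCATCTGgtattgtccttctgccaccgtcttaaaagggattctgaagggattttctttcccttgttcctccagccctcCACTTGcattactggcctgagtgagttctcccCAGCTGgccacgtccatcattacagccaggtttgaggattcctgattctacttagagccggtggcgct

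The Chrng window holds 3 E-boxes, whose first bases lie 155, 132 and 75 bases before the start, and no N-box. The Chrne window holds 1 E-box at 138 and the N-box at 76 bases before the start, and it was the only 1 of the 9 windows of the 7 matched genes with an N-box. Chrnb1 and Musk hold 3 E-boxes each. Over all 32851 windows of the same length, 12.0% held an N-box and 66.2% an E-box, so that an E-box is what most promoters have. Such a match is a description of the letters and no evidence of binding in these muscles.

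Among the genes of the clustering pathway, Agrn codes for agrin, the ligand. Its values were 3.87, 3.70, 4.02 and 3.83 in Ts65Dn and 4.19, 4.30, 4.46 and 4.17 in WT (log2, replicates 1 to 4), so every Ts65Dn array was lower. The log2 fold change was -0.42 (95% interval -0.69 to -0.16, limma adjusted p = 0.0580). Its mean level was below the median of all genes, where most genes had negative values: the nearest 100 had a median of -0.29, 35 of them did not overlap between the groups, and 23 had a lower fold change than Agrn. Level-matched, the difference was -0.18 (-0.41 to 0.05, limma adjusted p = 0.335). The groups were then only just apart, with a highest Ts65Dn value of 4.12 and a lowest WT value of 4.13. The probe set does not tell the nerve's agrin isoforms from those of muscle and other cells.

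Lrp4, the agrin receptor on the muscle side, was at 5.63, 5.86, 5.60 and 5.70 in Ts65Dn and at 5.51, 5.26, 5.39 and 5.53 in WT (log2, replicates 1 to 4). The groups were apart by a narrow margin, with means of 5.70 ± 0.11 and 5.42 ± 0.13 (SD, n = 4). The log2 fold change of 0.27 (95% interval 0.01 to 0.54) did not pass (limma adjusted p = 0.129). It was 0.22 level-matched, where the groups overlapped, and 0.18 without WT replicates 2 and 3.

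Musk, the receptor tyrosine kinase that agrin and Lrp4 activate, showed the largest difference of the 10. It was at 8.23, 8.59, 7.92 and 8.53 in Ts65Dn and at 7.90, 7.41, 6.74 and 7.65 in WT (log2, replicates 1 to 4). Every Ts65Dn array was higher, but Ts65Dn replicate 3 and WT replicate 1 nearly touched, and WT replicate 3 lay far below the rest. The means were 8.32 ± 0.31 and 7.42 ± 0.50 (SD, n = 4), 1.86-fold apart, which is 0.89 on the log2 scale (95% interval 0.36 to 1.43, limma adjusted p = 0.0529). Of the 100 genes nearest in level, 84 also had a positive fold change, with a median of 0.37, and 95 had a lower one than Musk. The level-matched difference was 0.57 (0.18 to 0.97, limma adjusted p = 0.117), with overlapping groups. Leaving out WT replicates 2 and 3 gave 0.54. The test was passed without WT replicate 1 (1.05, limma adjusted p = 0.0345) or 4 (0.97, 0.0474), where 2865 and 2422 of all 19938 genes passed.

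Dok7, the cytoplasmic activator of MuSK, was at 4.87, 5.12, 5.32 and 4.99 in Ts65Dn and at 5.22, 5.16, 5.63 and 5.23 in WT (log2, replicates 1 to 4). The groups overlapped, and the fold change of -0.23 (95% interval -0.56 to 0.09, limma adjusted p = 0.272) was that of genes of its level (-0.22), leaving -0.02 when level-matched. Rapsn, which codes for the scaffold rapsyn, was at 4.38, 5.03, 5.16 and 5.25 in Ts65Dn and at 4.65, 4.67, 4.66 and 4.78 in WT. Ts65Dn replicate 1 was the lowest array and the other 3 Ts65Dn arrays were the highest, while the WT arrays lay within 4.65 to 4.78. The log2 fold change was 0.26 (-0.13 to 0.66, limma adjusted p = 0.302), and 0.46 without Ts65Dn replicate 1. The median over the nearest 100 genes was -0.30, and 87 of these had a lower fold change than Rapsn. Its level-matched value was 0.54 (0.15 to 0.92, limma adjusted p = 0.129).

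**Figure D3:**
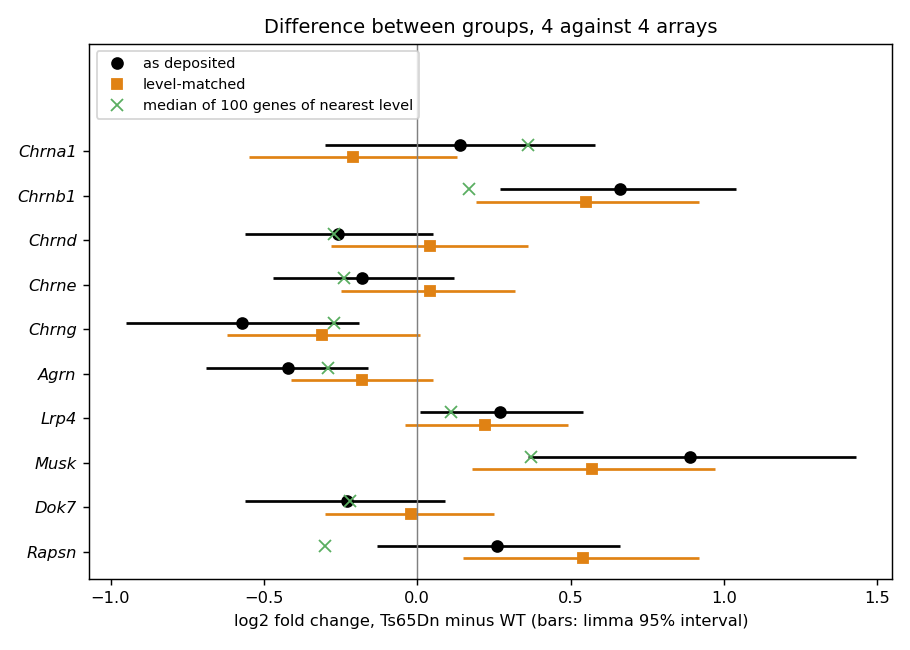
Log2 fold change (Ts65Dn minus WT, horizontal axis) of each endplate gene as deposited (black circle) and level-matched (orange square), with limma 95% intervals, and the median of the 100 other genes nearest in level (green cross). Chrnb1, Musk and Rapsn stay above 0 after level matching (0.55, 0.57 and 0.54), while Chrnd, Chrne and Dok7 move to within 0.04 of 0.

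In level-matched values, 3 of the 10 genes had an unadjusted p under 0.05 (Chrnb1, Musk and Rapsn, all higher in Ts65Dn), beside 20.9% of all genes. For 2 of the 10, Chrnb1 and Agrn, the groups did not overlap (12.8% of all genes), by narrow margins. By limma 0 of the 10 passed, with 0.451% of all genes passing (90, of which 74 were higher and 16 lower). The split of calls over all genes moved with the scaling: as deposited 462 genes were higher (2.32%) and 587 lower (2.94%), against 951 and 57 after median centring and 117 and 18 with cyclic loess.

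**Figure D4:**
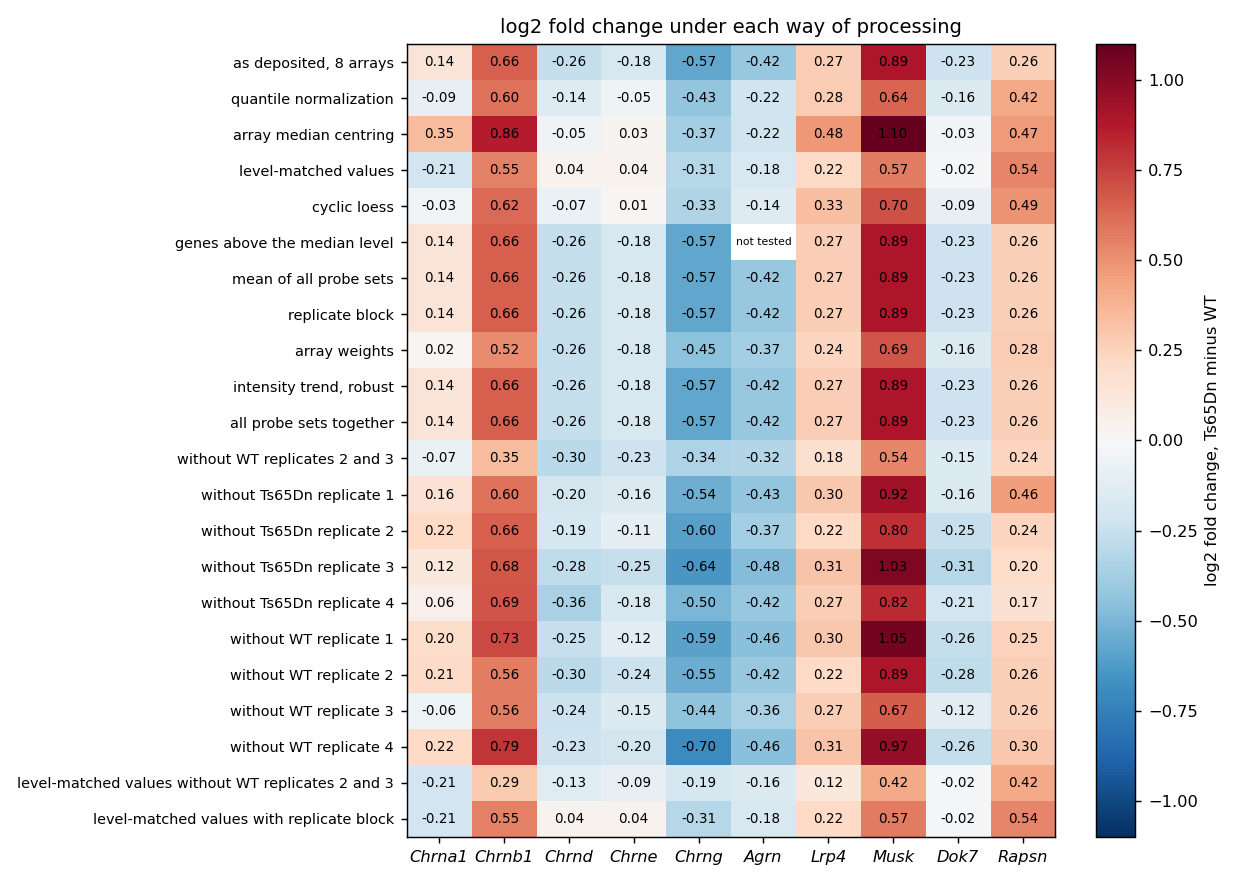
Log2 fold change (colour and number, Ts65Dn minus WT) of each endplate gene (columns) under each way of processing and with arrays left out (rows). Musk, Chrnb1, Lrp4 and Rapsn were positive and Chrng, Agrn and Dok7 negative in every row in which they were tested; Chrna1, Chrnd and Chrne changed sign.

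The next comparison placed the 10 genes beside other genes of the endplate, among them the enzymes and matrix proteins of the cleft, the neuregulin and ErbB signal, MuSK's downstream kinases and the transcription factors of endplate nuclei. Of 51 listed genes, 47 were measured, and 3 passed as higher in Ts65Dn and 0 as lower (limma, adjusted over all genes; 2.32% and 2.94% of all genes). These were Utrn, Macf1 and Lama4. Positive fold changes were held by 35 of the 47 as deposited, where 39.2% of all genes were positive. Level-matched, 32 of the 47 were positive, and the 39.2% is not the background for that count. The median was 0.21, or 0.11 level-matched, beside -0.10 and 0.00 over all genes. As fold changes followed the level of a gene, the level-matched median is the closer comparison. Utrophin (Utrn), the dystrophin relative concentrated at the endplate, rose from 5.26 ± 0.35 to 6.15 ± 0.24 (log2, SD, n = 4), or by 0.89 (limma adjusted p = 0.0456). Macf1, a linker of microtubules and actin that binds rapsyn, rose from 6.04 ± 0.36 to 6.90 ± 0.19, a difference of 0.85. The laminin chain Lama4 rose from 4.70 ± 0.13 to 5.38 ± 0.26, a difference of 0.68. All 3 were higher in 4 of 4 Ts65Dn arrays. Level-matched, Lama4 passed (0.97, limma adjusted p = 0.0450) as did the kinase gene Fyn (0.93, 0.0448; 0.59 and 0.0529 as deposited), whereas Utrn (0.87, 0.0539) and Macf1 (0.68, 0.0769) did not. Without WT replicates 2 and 3 the limma adjusted p-values of Utrn, Macf1, Lama4 and Fyn were 0.213, 0.199, 0.209 and 0.206.

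The enzyme of the synaptic cleft and its anchor differed by less than the spread within the groups. Ache, acetylcholinesterase, was at 4.19 ± 0.48 in Ts65Dn and 4.19 ± 0.61 in WT (log2, SD, n = 4; limma adjusted p = 0.992). Its collagen tail Colq was at 5.50 ± 0.26 and 5.50 ± 0.14 (limma adjusted p = 0.988). Of the neuregulin pathway, Nrg1 was at 3.87 ± 0.14 and 3.90 ± 0.18 (limma adjusted p = 0.868), and its receptors Erbb2 and Erbb3 had log2 differences of -0.36 (0.136) and -0.51 (0.126), or -0.07 and -0.25 when level-matched. Among the transcription factors, Etv5 differed by 0.12 (limma adjusted p = 0.625). Gabpa, the DNA-binding subunit of GABP, is itself carried in 3 copies in Ts65Dn mice; it was at 9.16 ± 0.09 against 8.33 ± 0.67, higher in all 4 Ts65Dn arrays, with a fold change of 0.83 that did not pass (limma adjusted p = 0.0732). It was 0.57 level-matched and 0.37 without WT replicates 2 and 3. Its partner Gabpb1 was at 3.94 ± 0.40 and 3.94 ± 0.43.

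The other nicotinic subunits, which form receptors of neurons and other cells, serve as relatives that muscle fibres make little of. All 11 were measured and 11 had a negative fold change, where 39.2% of all genes had a positive one. Their median of -0.31 became -0.05 level-matched, beside 0.00 over all genes, and 3 of the 11 were then positive. Chrna2 (-0.68, limma adjusted p = 0.0475) and Chrna10 (-0.60, 0.0493) fell, beside 2.94% of all genes, and neither passed level-matched (0.160 and 0.315) or without WT replicates 2 and 3 (0.210 and 0.200). Chrnb4 (-0.74) and Chrna4 (-0.62) had limma adjusted p-values of 0.0559 and 0.0605. The mean log2 level over these 11 genes was 3.53 to 3.73 in the Ts65Dn arrays and 3.84 to 4.21 in the WT arrays. The fold change of Chrng (-0.57) lay within the range of its neuronal relatives (-0.74 to -0.08).

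Beside Chrng, 16 further genes known to respond to denervation were listed, of which 14 were measured. By limma 0 passed in either direction and 4 of the 14 had an unadjusted p under 0.05, beside 34.8% of all genes. As deposited 11 were positive, beside 39.2% of all genes, with a median of 0.24, or 0.19 level-matched. Sarcolipin (Sln), an inhibitor of the calcium pump, was at 7.38 ± 0.66 against 6.23 ± 0.42 (log2, SD, n = 4), a fold change of 1.15 (limma adjusted p = 0.0529). The embryonic and perinatal myosins Myh3 and Myh8 had values of 0.64 (0.0823) and 0.66 (0.112). Runx1, a transcription factor that denervation induces and that lies in the trisomic part of chromosome 16, was at 4.84 ± 0.22 and 4.43 ± 0.06, a fold change of 0.41 (limma adjusted p = 0.0690). Myog, which codes for myogenin, had a value of 0.28 (0.216), and Ncam1, an adhesion molecule that spreads along denervated fibres, one of 0.24 (0.210). Chrng was negative, as were 3 genes of this list that are not named here (down to -0.38), and none of them passed. Level-matched, 9 of the 14 were positive, where the median over all genes was 0.00. Gadd45a, Hdac4 and Myod1 were then at -0.71, -0.24 and -0.25, and Sln, Myh3, Myh8 and Runx1 at 0.81, 0.55, 0.61 and 0.67.

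**Figure D5:**
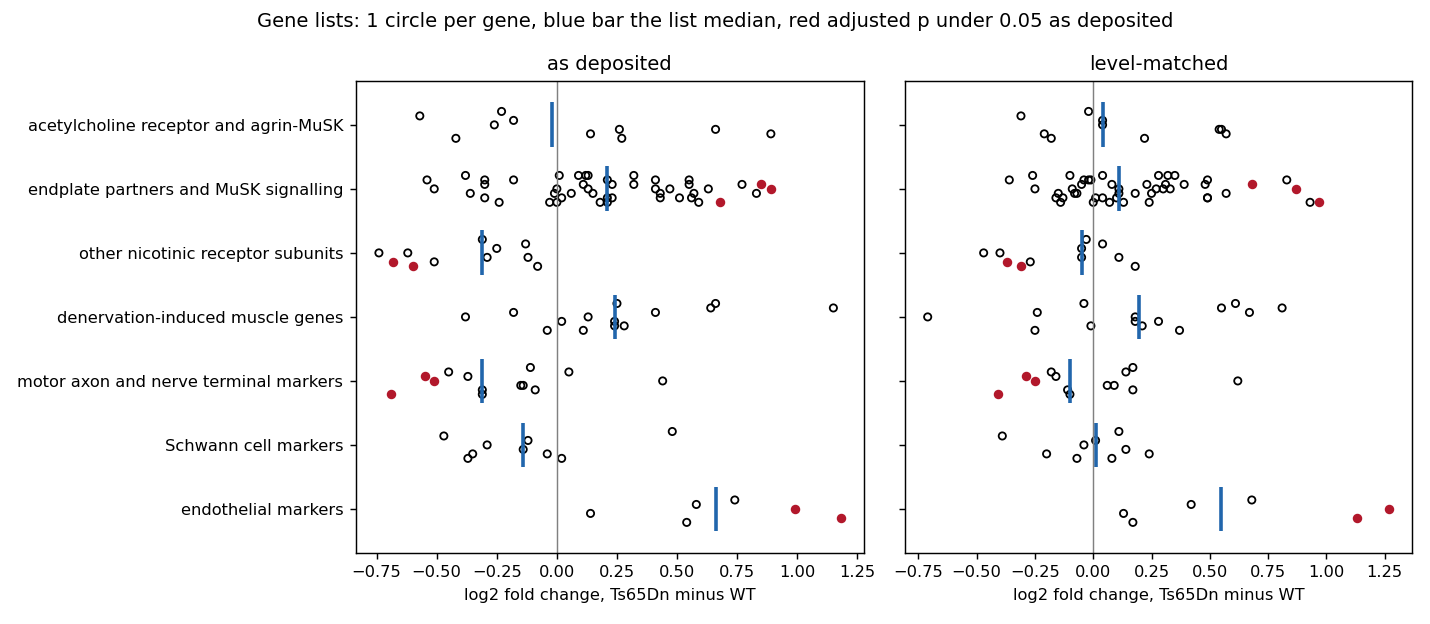
Log2 fold change (Ts65Dn minus WT, horizontal axes) of each gene in 7 lists as deposited (left) and level-matched (right). Each circle is a gene, blue bars are list medians and red circles passed limma's test as deposited. The medians of the neuronal nicotinic subunits and of the nerve markers move from -0.31 to -0.05 and -0.10 with level matching, and that of endothelial markers from 0.66 to 0.55.

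Markers of other cells in the muscle were read from the same arrays. Of 13 genes of motor axons and terminals, 0 passed as higher and 3 as lower, beside 2.32% and 2.94% of all genes: Slc18a3, the vesicular acetylcholine transporter (-0.69, limma adjusted p = 0.0456), Syt1 (-0.55, 0.0456) and Nefh (-0.51, 0.0473). Level-matched, their adjusted p-values were 0.0782, 0.146 and 0.242, and without WT replicates 2 and 3 they were 0.174, 0.209 and 0.201. Stmn2, a marker of growing axons that was singled out after its values were seen, went the other way (0.44, or 0.62 level-matched), with 3 of 4 Ts65Dn arrays above the WT range, and did not pass (limma adjusted p = 0.151). Of the 13 genes 2 had a positive fold change as deposited (39.2% of all genes). Level-matched, 6 of them were positive, where the median over all genes was 0.00. The summed unlogged level of the 13 genes was 193 to 213 in Ts65Dn and 222 to 259 in WT. Their mean log2 level was 3.69 to 3.71 in Ts65Dn and 3.84 to 4.08 in WT. That is below the median over all genes in every array (4.57 to 4.65 and 4.72 to 4.86). Whether these transcripts were present in the muscle RNA is thus not known, and their values are no measure of nerve terminals. Of 9 measured Schwann cell genes 0 passed by limma and 2 had an unadjusted p under 0.05 (34.8% of all genes), Ngfr (-0.47) and Pmp22 (0.48). Of the 9, 2 were positive and 7 negative, with a median of -0.14, or 0.01 level-matched. The summed level of the 9 was 349 to 410 in Ts65Dn and 299 to 402 in WT. That sum gives most weight to bright genes such as Pmp22 (7.59 and 7.11 on the log2 scale). The mean log2 level of the 9 was 4.52 to 4.65 in Ts65Dn and 4.62 to 4.87 in WT. Of 6 endothelial genes 2 passed as higher (2.32% of all genes), Kdr (0.99, limma adjusted p = 0.0449) and Emcn (1.18, 0.0456), and all 6 were positive (39.2% of all genes). Their summed level was 441 to 547 in Ts65Dn and 246 to 373 in WT, and level-matched Kdr passed (1.27, limma adjusted p = 0.0160) while Emcn did not (1.13, 0.0562). Without WT replicates 2 and 3 neither passed (limma adjusted p = 0.165 for Kdr and 0.174 for Emcn). No marker was listed at 0 in any array, as RMA values are not. The part of these cells in the values of the endplate genes was not tested.

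The genes whose values moved most like those of Chrng and Musk within the groups were found by Pearson's r over the 8 arrays after each group's mean was subtracted. For Chrng these were Dpysl4, Hrh2 and Chrd (r = 0.99 each). For Musk they were Lamtor4, Scn7a and Git2 (r = 0.98 each). The arrays are shared by all genes and differ in spread, and the highest of many correlations are given, so these are descriptions only. Dpysl4 passed as lower in Ts65Dn (-0.61, limma adjusted p = 0.0475) and the other 5 did not pass. Lamtor4 had a fold change of -0.01.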

How the data were processed

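Total RNA of each muscle was purified with RNeasy columns, amplified with the Ovation Pico system and labelled with biotin, per the labels' protocols. The authors summarised each array by gene with RMA in Affymetrix Expression Console 1.1, per the submitters' processing notes. The deposited values are taken as log2 from their range; the genome build is not given in the sources used here. Depth has no meaning for arrays, whose number (4 per group) limits the precision. RMA values carry no detection call.

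Of 35556 probe sets, 21789 had 1 symbol, updated through the Entrez identifier for 21698. Per gene the probe set with the highest mean was kept (19938 genes). The test was limma's moderated one (version 3.58.1, R 4.3.3), two-sided and without covariates, with Benjamini-Hochberg adjustment over all genes, threshold 0.05. The fit was tested on simulated data with independent noise for each gene. Those data lack the array-wide differences seen here, so they do not show how well its p-values hold for these arrays. Its p-values set a group difference against the spread within the groups, moderated across genes. With 1 array per mouse, that spread holds differences between mice and between arrays, which cannot be told apart. Trisomic genes were placed by RefSeq gene order. Python 3.11.15 prepared the tables.

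The 10 genes and the gene lists were chosen with earlier results of these data known. Besides the 10, up to 4 genes per list with the smallest p, genes fixed by name and the 3 genes most like Chrng and Musk are named. List genes that were not measured were not analysed here. Same-numbered arrays of the groups had correlations of deviations from 0.0117 to 0.0913, and differently numbered ones from -0.119 to 0.0888. Such correlations cannot decide whether same-numbered mice were paired. The main fit took the mice as unpaired. Alternatives were other normalizations, centring, level matching, leaving out genes below the median level, averaging a gene's probe sets, a block for replicate number, weighting arrays, a robust trend, all probe sets adjusted together and arrays left out. Level matching combined with left-out arrays or with the block was added after the data were seen.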

Additional observations from a re-analysis of the deposited data

Results flagged for a closer look

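Among the 20 groups of 4 arrays formed by the 10 genes, 3 held an array that stood apart from the other 3 by more than Dixon's 95% limit; chance alone flags about 1 in 20 such groups. WT replicate 3 was low for Chrna1 (6.07 on the log2 scale, with a gap of 0.922 of the group's range) and high for Dok7 (5.63, a gap of 0.853). WT replicate 4 was high for Rapsn (4.78, a gap of 0.831), in a group whose values lay within 4.65 to 4.78. WT replicate 3 was the highest or lowest of all 8 arrays for 5 of the 10 genes, as was Ts65Dn replicate 2.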

How the results depend on the processing

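The number of the 10 genes that passed was 0 as deposited, 1 with each array centred on its median (Chrnb1), and 0 to 3 with single arrays left out; it stayed 0 under the other alternatives. The number of all genes that passed was 1049 as deposited, 1008 with median centring, 997 with the mean of a gene's probe sets and 889 with a robust intensity trend. It was 1 with quantile normalization, with all probe sets adjusted together, without WT replicates 2 and 3, and with those arrays left out of level-matched values. It was 90 with level matching, 135 with cyclic loess, 236 with array weights, 436 among genes above the median level and 295 with level matching and the replicate block. With the replicate block alone it was 0. Leaving out single arrays gave 0 to 2865, the largest without WT replicate 1, with 2422 without WT replicate 4 and at most 1 without any other array. Whether the replicate numbers pair the mice is not known. The block changed no call among the 10 genes, and with it Utrn, Macf1 and Lama4 had limma adjusted p-values of 0.0530 each.

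Musk, Chrnb1, Lrp4, Rapsn, Chrng, Agrn and Dok7 kept their direction under every alternative in which they were tested. Musk stayed at 0.42 or above; the ranges of the other 6 were 0.29 to 0.86, 0.12 to 0.48, 0.17 to 0.54, -0.70 to -0.19, -0.48 to -0.14 and -0.31 to -0.02. Agrn lay below the level filter. Chrna1 (0.14 as deposited) turned to -0.09 with quantile normalization, -0.03 with cyclic loess, -0.21 with level matching alone, with the block or without WT replicates 2 and 3, and -0.07 without those arrays as deposited; with single arrays left out it ranged from -0.06 (WT replicate 3) to 0.22. Chrne (-0.18) turned to 0.03 with centring, 0.01 with cyclic loess and 0.04 with level matching, with or without the block, and Chrnd (-0.26) to 0.04 with the latter. The cause was not tested. With 4 arrays per group, intervals of the 10 genes were wide, and a limma p above the threshold does not show that a gene did not differ.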

Other observations

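Of 7 genes of myogenic and satellite cells, Myf6, which codes for the myogenic factor MRF4 of mature fibres, was the one that passed, at 9.47 ± 0.33 in Ts65Dn and 8.55 ± 0.42 in WT (log2, SD, n = 4; log2 fold change 0.92, limma adjusted p = 0.0475). It was 0.69 level-matched (limma adjusted p = 0.0877) and 0.56 without WT replicates 2 and 3 (0.241). Pax7, the satellite cell factor, had a fold change of -0.29 (limma adjusted p = 0.149), and 0.02 level-matched. The fast-fibre genes Actn3 and Myh4 were at 7.48 ± 1.36 and 7.44 ± 2.07 in Ts65Dn against 6.10 ± 0.96 and 6.17 ± 0.25 in WT. Neither passed (limma adjusted p = 0.148 and 0.265), nor did any other of the 8 fast-fibre genes. The rest of that list differed little, with log2 fold changes from -0.24 (Pvalb) to 0.13 (Mylpf). Over the 8 genes the median was 0.07, with 6 positive and 2 negative. In Ts65Dn, Actn3 ran from 6.14 to 9.26 and Myh4 from 6.22 to 10.52. The spread of Myh4 came mostly from its highest array. One macrophage gene of 6, Cd68 (2.39, limma adjusted p = 0.0475), and 1 fibroblast gene of 6, Pdgfra (0.62, 0.0456), passed as higher in Ts65Dn, beside 2.32% of all genes. Level-matched, Pdgfra passed (0.76, limma adjusted p = 0.0450) and Cd68 did not (2.10, 0.0909), and without WT replicates 2 and 3 neither did (0.174 and 0.222). The lists as a whole did not follow these genes. Of the 6 macrophage genes 4 were positive and 2 negative, with a median of 0.07. Of the 6 fibroblast genes 3 were positive and 3 negative, with a median of 0.15.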
